A study of Mus musculus with 15 samples.

Results

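The regions described here were listed as decreased for the histone variant H2A.X in every 2i/LIF culture of mouse embryonic stem cells and in none of the Serum/LIF cultures titled XS. They are the bins of 1300 bp that lay in all 3 of the 2i/LIF lists (lines 34, 35 and 37) and in none of the 3 XS lists (lines 30, 31 and 32), on 16 autosomes. Chromosomes 6, 8 and 13 were left out by the rule. Adjacent bins were joined. The rule gave 955 regions with a total length of 56.9 Mb, which was 2.82% of the 2020.3 Mb spanned by the lists on these autosomes. It was 9.01% of the 632 Mb that lay in all 2i/LIF lists; the other 575 Mb lay in at least 1 XS list as well. The members were chosen by the coverage of these lists, so the full coverage in 2i/LIF and the absence from the XS lists follow from the choice and were not tested.

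H2A.X is a variant of the core histone H2A that is spread through chromatin and is phosphorylated around DNA double-strand breaks, where the modified form covers wide stretches of chromatin. In 2i medium one inhibitor blocks the kinase Mek, and with it Erk signalling, and the other blocks the kinase Gsk3, which stabilises β-catenin. Embryonic stem cells kept in 2i are known for a uniform, naive state and for low DNA methylation, whereas cultures in serum are more mixed. The question given for the series is whether the H2A.X deposition pattern differs between culture conditions.

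H2A.X was mapped by native ChIP-seq, in which nucleosomes are immunoprecipitated from nuclease-digested chromatin without crosslinking. All lines came from blastocysts of the cross 129S6 X C57B6 and are male and female, without the sex of each line among the labels used. The 2i/LIF cells (3 lists) were in serum-free medium with LIF, 1 µM PD0325901, which inhibits Mek, and 3 µM of the Gsk3 inhibitor CHIR99021. The 2i/LIF then Serum/LIF cells (2 lists, lines 34 and 37) were moved to serum with LIF, after a time that the labels do not give; the lists of this group are called the lists after the move. The Serum/LIF cells were grown with LIF on irradiated feeder cells and were titled XS (3 lists) or S (2 lists, lines 35 and 37), letters whose meaning is not given. An S sample of line 34 is also in the series, but no list of it was among those analysed. Each list names domains decreased against a control that is not identified, and holds no read counts. The sequencing depth is therefore unknown, and the labelled cell type could not be checked against marker genes. Lines 30, 31 and 32 have XS lists only and the other lines have none, so line and culture cannot be told apart in the rule. Nothing states that the samples of a group are separate cultures, so p-values between groups measure the spread between these lists, which may be technical.

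The lists differed widely in how much they covered, which bears on how the members were chosen. Over the same 16 autosomes the 2i/LIF lists of lines 34, 35 and 37 covered 34.6%, 78.5% and 46.4% of bins. The XS lists of lines 30, 31 and 32 covered 37.9%, 73.5% and 32.2%. The narrowest 2i/LIF list, that of line 34, and the widest XS list, that of line 31, did most of the choosing. Without line 34 in the rule there were 1452 regions over 114 Mb, and without XS line 31 there were 2140 regions over 207 Mb. Without XS line 32 the rule gave 948 regions over 57.7 Mb, hardly different from the full rule. Of bins just outside the rule, 72.6 Mb lay in 2 of the 2i/LIF lists and no XS list, and 167 Mb lay in all 2i/LIF lists and 1 XS list.

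The regions were short for these lists. Their median length was 42.9 kb, with quartiles at 14.3 and 85.8 kb, and they ran from 1 bin (46 regions) to 465.4 kb. The 187 regions longer than 100 kb made up 51.9% of the total length. Most regions were slices of a longer stretch held by all 2i/LIF lists. Of the 955 regions, 639 lay at an end of such a stretch and adjoined a part of it that was also in an XS list, and 93 were interior slices with XS coverage on both sides. The other 223 were whole stretches that met no XS domain, with a median of 78.0 kb. These 3 kinds held 49.4%, 12.9% and 37.6% of the member length. A stretch in all 2i/LIF lists had a median length of 180.7 kb, so the whole stretches without XS coverage were on the short side.

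After the move to Serum/LIF, most of the member length was still listed as decreased, in both lines and by almost the same share. The list of line 34 after the move covered 74.6% of the member length, or 42.5 Mb, and that of line 37 covered 75.5%, or 43.0 Mb. Of all bins on the same autosomes these lists covered 47.4% and 46.7%, so members were covered 1.57 and 1.62 times as often. Both lists together held 64.7% of the member length, against 42.2% of all bins. Neither list held 14.6% of it, against 48.1% of all bins. These lists took no part in the rule. They come from lines 34 and 37, however, whose 2i/LIF lists were part of it, and the XS lists come from other lines. Line and culture therefore cannot be told apart in this coverage.

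The Serum/LIF S lists covered almost none of the members. The share was 75.1% ± 0.636 after the move (SD, n = 2) and 0.192% ± 0.268 in the S lists (SD, n = 2), a difference of 74.9 percentage points. Both lists after the move lay above both S lists. The two-sided exact permutation p was 0.333, and 2 lists against 2 can give no smaller one. The S lists are nearly empty everywhere: that of line 35 covered 0.0427% of all bins and that of line 37 covered 0.384%. Line 37 had 0.381% of the member length in its S list, the same share as of all bins to within 0.01 percentage points, and line 35 had 0.00228%, which was 1 bin. The S domains also differed in a value of undefined meaning that the authors give per domain. It was above 0 in 100% of the domains of both S lists, compared with 16.8% (line 34) and 1.06% (line 37) of those after the move.

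**Figure D1:**
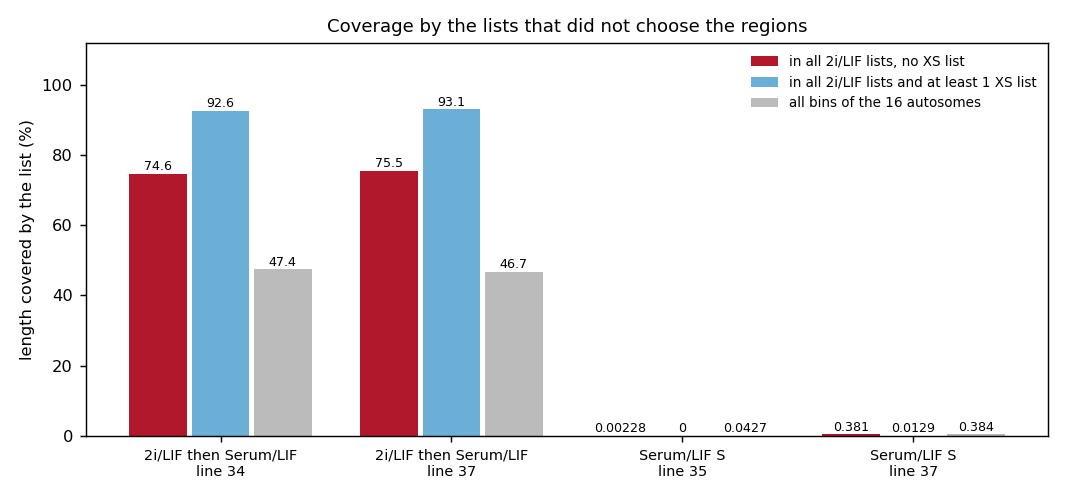
Share of length covered (%) by each list that took no part in choosing the regions, for the regions in all 2i/LIF lists and no XS list (red), for the rest of the length in all 2i/LIF lists (blue) and for all bins of the 16 autosomes (grey). Each bar is 1 list. In both lists after the move the red bars, at 74.6% and 75.5%, stand between the blue bars, at 92.6% and 93.1%, and the grey bars, at 47.4% and 46.7%; the S lists are near 0 throughout.

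The members were covered less after the move than the rest of the length shared by the 2i/LIF lists. Where all 2i/LIF lists and at least 1 XS list held a bin, line 34 after the move covered 92.6% and line 37 covered 93.1%. The difference of members minus this rest was -18.0 percentage points in line 34 and -17.6 in line 37. It averaged -17.8 ± 0.285 (SD, n = 2). The two-sided exact sign-flip permutation p was 0.5, and 2 lists can give no smaller one. The direction was the same on all 16 chromosomes in both lists. Members lay nearer to the edges of the 2i-shared stretches, with 21.5% of their length within 13 kb of an edge against 7.72% of the rest. With the rest weighted to the members' edge distances, which was done only once the data had been seen, the difference was -15.4 percentage points.

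The gap to the rest was smaller where the rest was not in XS line 30. The mean coverage after the move was 75.1% for the members. It was 80.5% for 2i-shared bins in XS line 31 alone (150.5 Mb), 84.1% for those in line 32 alone (0.740 Mb) and 79.5% for those in lines 31 and 32 (8.44 Mb). In every class that XS line 30 held it was higher: 96.0% for bins in line 30 alone (15.6 Mb), 98.8% for lines 30 and 32 (1.37 Mb), 96.6% for lines 30 and 31 (209.9 Mb) and 98.9% for all 3 (188.5 Mb). Every class with XS line 30 thus stood above every class without it. The mean also rose with the number of XS lists, from 81.9% for exactly 1 list to 95.9% for exactly 2 and 98.9% for all 3. Number alone did not set the order, since lines 31 and 32 together stood below line 30 alone. Against the bins of XS line 31 alone, a comparison likewise added later, members differed by -5.39 percentage points (exact sign-flip permutation p = 0.5, the smallest possible).

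Among bins that no XS list held, those in the 2i/LIF list of line 34 were the most covered after the move. Where 3, 2, 1 or 0 of the 2i/LIF lists held such a bin, the lists after the move covered on average 75.1%, 43.4%, 33.2% and 28.1% of the length. Within these classes coverage differed by line. Bins in the 2i/LIF lists of lines 35 and 37 but not line 34 (57.2 Mb) were covered over 34.4% and 32.7% by lines 34 and 37 after the move, below the 47.4% and 46.7% of all bins. Bins in lines 34 and 35 but not 37 (12.7 Mb) were covered over 81.0% and 78.2%, and bins in lines 34 and 37 but not 35 (2.71 Mb) over 82.8% and 80.7%. Bins in the list of line 34 alone (5.41 Mb) were covered over 89.9% and 83.8%, more than the members themselves. Bins of line 37 alone (5.31 Mb) stood at 50.5% and 53.3% and those of line 35 alone (101 Mb) at 30.9% and 27.9%.

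That order was found in the list of the other line as well as in that of the same line. Bins without XS coverage that were in the 2i/LIF list of line 34 and not of line 37 were covered over 83.6% by line 34 after the move and 79.9% by line 37. Bins in the 2i/LIF list of line 37 and not of line 34 were covered over 35.7% by line 34 after the move and 34.5% by line 37. Line 37 after the move thus held a larger share of the first set than of the second. Neither set was free of line 35, whose 2i/LIF list held 70.1% of the first and 91.5% of the second. These sets held 18.1 Mb for line 34 and 62.5 Mb for line 37. The 2i/LIF list of line 34 was the narrower, with 34.6% of all bins against 46.4%, so line and width of list cannot be told apart here. With line 34 left out of the rule, the mean share of members covered after the move was 54.3%, the lowest of all lists left out.

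**Figure D2:**
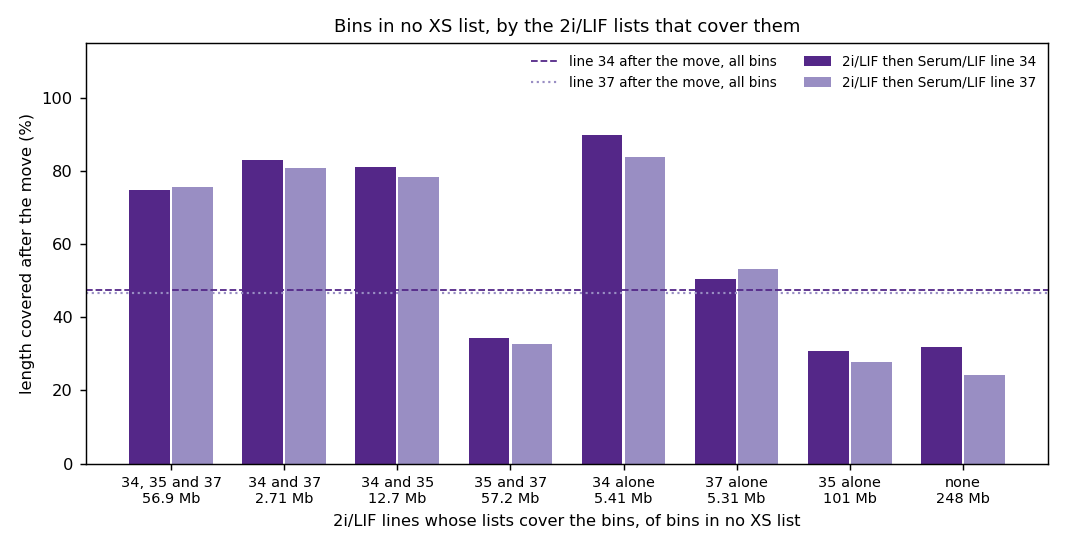
Share of length covered (%) after the move by line 34 (dark) and line 37 (light), for bins in no XS list, by the 2i/LIF lists that hold them; the length of each class stands under its bars, and the dashed and dotted lines mark the shares of all bins, 47.4% and 46.7%. Every class that includes 2i/LIF line 34 lies between 74.6% and 89.9%, and every class without it lies between 24.3% and 53.3%.

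The reverse set gave low coverage after the move. Bins in all XS lists and no 2i/LIF list made up 27.6 Mb in 369 regions on the same chromosomes. Lines 34 and 37 after the move covered 74.6% and 75.5% of the members, compared with 14.5% and 14.1% of this reverse set, which is below the 47.4% and 46.7% of all bins. Neither set was chosen with the lists after the move. Both were chosen with the 2i/LIF lists of lines 34 and 37 and with XS lists of other lines. Line and culture therefore cannot be told apart in this contrast either.

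Region by region, members were touched by the lists after the move more often than windows of the genome, but less often than the rest of the 2i-shared length. Of the 955 regions, 762 (79.8%) were touched by both lists after the move, against 46.8% of windows of the median region length laid over the 16 autosomes and 92.2% of the 2074 other 2i-shared regions. Both lists covered 659 regions (69.0%) over at least 50% of their length, against 42.3% of windows and 87.6% of the other 2i-shared regions. They covered 520 members (54.5%) completely, against 37.4% of windows and 56.6% of the other 2i-shared regions. Taken separately, line 34 covered 654 regions (68.5%) completely, against 44% of windows and 70.9% of the other 2i-shared regions. Line 37 covered 605 (63.4%) completely, against 41.2% of windows and 65.4% of the other 2i-shared regions. Only 66 regions (6.91%) were touched by neither list, against 44% of windows and 2.84% of the other 2i-shared regions. Line 34 covered 83.7% of members either completely or not at all and line 37 covered 75.3% so, against 93.2% and 89.2% of windows and 77.5% and 69.4% of the other 2i-shared regions. Since longer regions are more easily touched and less easily covered whole, windows of 1 length are only a guide. The same holds for the other 2i-shared regions, which were longer on average (2074 over 575 Mb, against 955 members over 56.9 Mb). The shares in the 2 lists had a Pearson r of 0.488 over the 955 regions, a description in which neighbouring regions can share a domain.

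**Figure D3:**
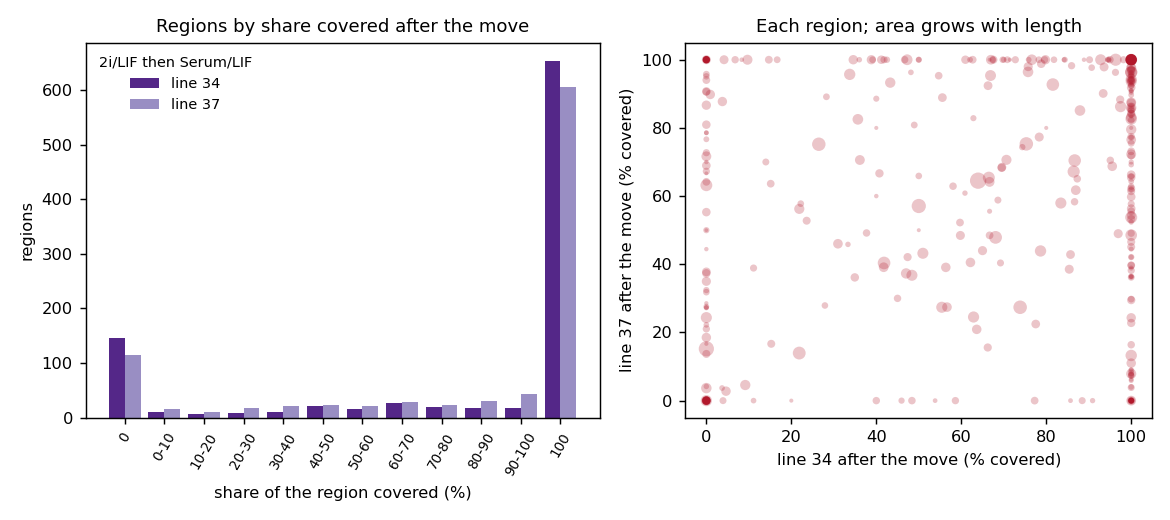
Left, the number of regions by the share of the region covered (%) after the move, for line 34 (dark) and line 37 (light), with regions at exactly 0 and 100 set apart. Right, each region by its share in line 34 and in line 37, with the area of a point growing with region length. Line 34 covered 654 regions (68.5%) completely and line 37 covered 605 (63.4%), and both covered 520 (54.5%). The same shares were 44%, 41.2% and 37.4% of windows of the median region length, and 70.9%, 65.4% and 56.6% of the other 2i-shared regions.

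In both lines the share of length covered was lowest in the longest class of regions. After the move line 34 covered 77.0% of the length in the 238 regions of up to 13 kb and 70.2% of that in the 108 regions over 130 kb, and line 37 covered 77.1% and 69.8%. The 382 regions from over 13 to 65 kb had the highest shares, 79.4% and 82.4%. Interior slices were covered over 82.5% by line 34 and 77.8% by line 37. End slices stood at 75.2% and 74.2%, and whole stretches at 71.2% and 76.5%, so the lines did not agree on which of these 2 kinds was lower. Coverage was higher next to XS domains: within 13 kb of one it was 82.4% in line 34 and 80.4% in line 37, and beyond 65 kb it was 69.6% and 73.1%.

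The 10 longest regions were mostly covered in part. The longest, on chromosome 9 from 109279301 to 109744700 (465.4 kb, mm9), was covered over 64.0% by line 34 and 64.5% by line 37 after the move. The next, on chromosome 19 from 14670501 to 15072200 (401.7 kb), met no XS domain at either side and was not covered by line 34, while line 37 covered 15.2%. A region on chromosome 2 from 60222501 to 60570900 (348.4 kb) had 50% in line 34 and 57.1% in line 37. In all 3 the lists after the move left out long parts of what all 2i/LIF lists held.

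The lines parted on some of the other long regions. On chromosome 14 from 49299901 to 49613200 (313.3 kb) line 34 covered 73.9% and line 37 covered 27.4% after the move. The opposite order was found on chromosome 12 from 73334301 to 73643700 (309.4 kb), with 26.5% in line 34 and 75.2% in line 37. On chromosome 18 from 33863701 to 34174400 (310.7 kb) both covered 75.3%. The lists agreed to the bin on that region and disagreed by more than 45 percentage points on the other 2, all of which were fully listed in every 2i/LIF culture.

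Coverage was low in both lines on chromosome 15 from 77220001 to 77499500 (279.5 kb), at 21.9% in line 34 and 14.0% in line 37. It was intermediate on chromosome 14 from 120919501 to 121196400 (276.9 kb), at 68.1% and 47.9%, and on chromosome 11 from 66506701 to 66777100 (270.4 kb), at 41.8% and 40.4%. On chromosome 17 from 36925201 to 37193000 (267.8 kb) line 34 covered 81.6% and line 37 covered 92.7%. None of these 10 regions was covered completely by either list after the move, and none was touched by an S list.

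Regions that both lists after the move covered completely were shorter. The longest of them was on chromosome 15 from 99937501 to 100172800 (235.3 kb), and 27.1% of it was also in the S list of line 37. The others among the 5 longest were on chromosome 4 from 94649101 to 94871400 (222.3 kb), on chromosome 2 between 106323101 and 106541500 (218.4 kb), on chromosome 10 between 69790501 and 70001100 (210.6 kb), and on chromosome 5 between 130366601 and 130570700 (204.1 kb). None of these 4 was touched by an S list. The region on chromosome 4 lay far from the XS lists, its farthest bin being 769.6 kb from the nearest XS domain.

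The longest regions that neither list after the move touched were decreased in every 2i/LIF list and in no other list. They were on chromosome 14 from 100682401 to 100890400 (208 kb), on chromosome 4 between 109189601 and 109326100 (136.5 kb), on chromosome 7 between 79062101 and 79186900 (124.8 kb), on chromosome 17 between 74408101 and 74521200 (113.1 kb), and on chromosome 12 between 59943001 and 60052200 (109.2 kb). Those on chromosomes 4 and 12 were whole stretches, and the other 3 adjoined an XS domain on 1 side.

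The domains of the lists after the move did not end where the members ended. The 1085 outer edges, where a stretch in all 2i/LIF lists stops, were compared on either side. At 38.35 kb inward from the edge, lines 34 and 37 after the move covered 77.0% and 80.8%. In the last bin inside, lines 34 and 37 after the move covered 72.0% and 70.6% of edges, and in the first bin outside 68.8% and 66.6%. At 26.65 kb outside, line 34 still covered 62.0% and line 37 covered 51.7%, both above the shares of all bins. The 2i/LIF lists covered 15.7% (line 34), 50.05% (line 35) and 27.2% (line 37) at the same distance, below their shares of all bins. An outer edge is placed where not all of these lists go on, so lower coverage outside follows in part from the choice of edges. At the 825 inner edges, where the 2i-shared stretch went on under an XS domain, lines 34 and 37 after the move covered 84.5% and 83.4% just inside the region and 85.2% and 84.7% just outside.

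The surroundings of the regions were also widely covered after the move. At the centres of the regions, lines 34 and 37 after the move covered 77.8% and 78.5%. At 198.9 kb downstream they covered 71.6% and 67.8%, compared with 47.4% and 46.7% of all bins. At that distance 2i/LIF lines 34, 35 and 37 covered 51.9%, 72.7% and 58.1%, which was more than their share of all bins in lines 34 and 37 and less in line 35. XS lines 30, 31 and 32 covered 30.7%, 51.1% and 11.1% there, all below their shares of all bins. The rule acts only at the regions, but neighbouring bins are not independent, so these shares are given without a test.

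**Figure D4:**
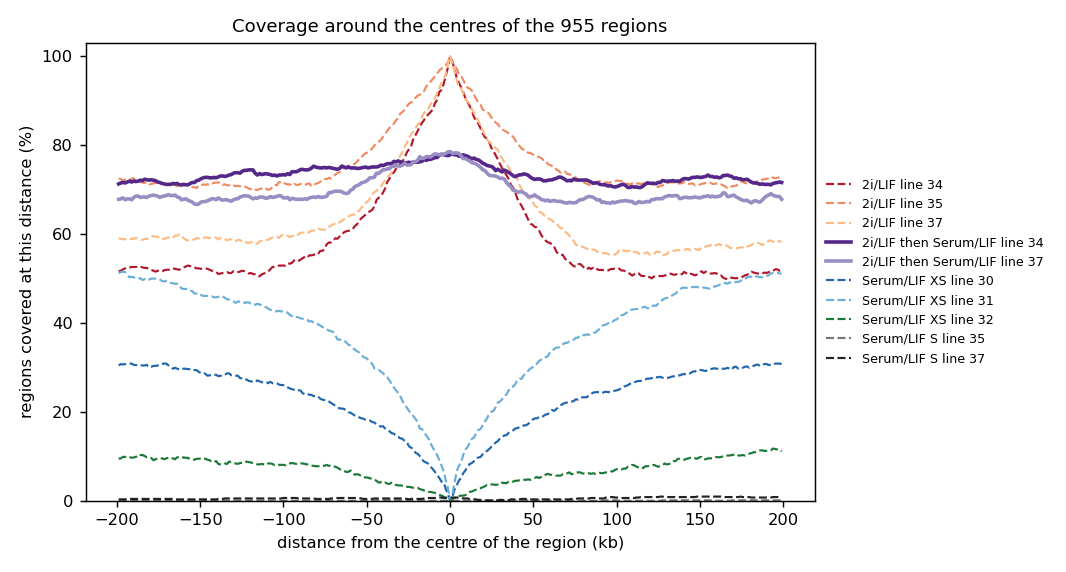
Share of the 955 regions covered (%) at each distance (kb) from the region's centre, for each list; solid lines are the lists after the move. The 2i/LIF lists start from 100% and the XS lists from 0 at the centre by the rule. The lists after the move stay nearly level, at 77.8% and 78.5% in the centre and 71.6% and 67.8% at 198.9 kb.

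The regions were spread over all 16 chromosomes. The number ran from 28 on chromosome 19 to 90 on chromosome 1, and neighbouring regions were a median of 704.6 kb apart. Of the 955 regions, 190 (19.9%) had another within 100 kb. Members made up 1.88% of the span of chromosome 5 and 4.68% of that of chromosome 19, the lowest and highest shares. Of the length in all 2i/LIF lists, they made up 5.25% on chromosome 5 and 13.6% on chromosome 10. With each chromosome's span cut into 5 equal parts in the direction of the coordinates, they held 21.0%, 19.9%, 19.2%, 22.6% and 17.3% of the member length. All length in the 2i/LIF lists together was less even, with 14.3% in the first part and 31.5% in the last, so members were relatively few toward the distal end.

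Chromosome 19 stood apart in line 34. After the move line 34 covered 32.8% of the members on chromosome 19, against 67.6% to 89.5% on the other 15 chromosomes. Line 37 covered 71.7% there, within its range of 66.5% to 84.8%. Line 34 also covered less of the whole chromosome, 36.5% of all bins against 57.7% in line 37, and less of the rest of the 2i-shared length, 70.7% against 91.1%. This was the only chromosome on which members were covered less than all bins, and only in line 34. Without it lines 34 and 37 covered 76.7% and 75.7% of the members.

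**Figure D5:**
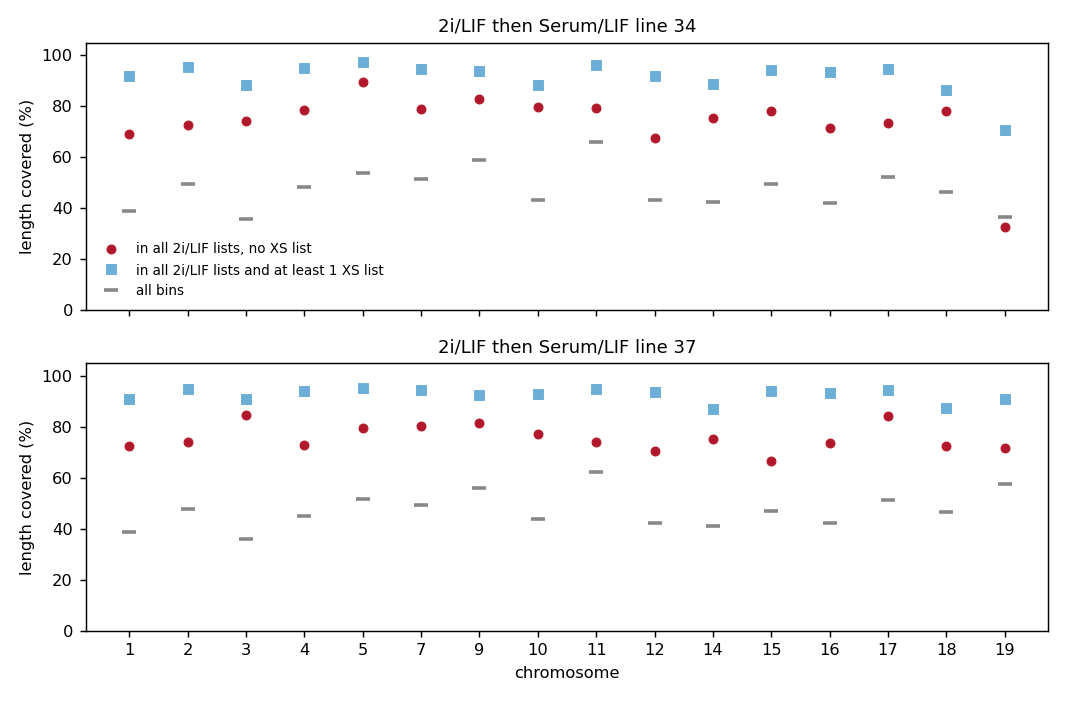
Share of length covered (%) after the move on each chromosome, line 34 above and line 37 below, for the regions in all 2i/LIF lists and no XS list (red), the rest of the length in all 2i/LIF lists (blue) and all bins (grey dashes). The red points lie below the blue on every chromosome and above the grey on all but chromosome 19 in line 34, at 32.8% against 36.5%.

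A few members were also in the S lists. The S list of line 37 touched 12 of the 955 regions (1.26%, against 0.58% of windows of the median region length) over 217.1 kb in all. That of line 35 touched 1 of the same regions (0.105%, against 0.0828% of windows) over 1.3 kb. The list of line 37 covered 6 of the 12 completely, all of them at most 31.2 kb long. After the region on chromosome 15 named above, the next most S coverage was on chromosome 9 from 88904401 to 88935600, where all 31.2 kb were in the S list and neither list after the move held any of it. On chromosome 12 from 21431801 to 21555300 (123.5 kb) the S list of line 37 held 26 kb, while line 34 after the move covered the whole region and line 37 covered 87.4%. Of the member length in the S list of line 37, 60.5% was held by both lists after the move and 25.1% by neither. These 2 regions were singled out after their values were seen.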

How the data were processed

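Per the submitters' processing notes, Bowtie2 (version 2.0.6) aligned the reads to the mm9 build of the mouse genome. How domains were called, and against which control, is not given in the sources used here. The series has 15 samples, of which 11 are H2A.X immunoprecipitates, 3 inputs and 1 an IgG control; lists of 10 H2A.X samples were analysed. Each list is taken as decreased, from the name the authors gave it, although its state column reads as enriched. The authors deposited 2 values per domain: a score, which never exceeds the number of bins and was used for ranking and, per bin, for description within a list, and a signed score of undefined meaning in column 5, used for its sign. Groups come from the titles, and the number in a title is taken as the cell line.

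On each chromosome, bins of 1300 bp from the first covered by a list to the last were marked as inside or outside each list. Shares are of length. Members and comparisons were chosen with earlier results of these data known. The regions named are the 10 longest and the 5 longest covered wholly or not at all after the move. Tests were two-sided exact permutation tests over lists. The background is the share of all bins on the 16 autosomes or of windows of the median region length. The rule and shares were checked on simulated lists, in which the 2i/LIF lists were identical and no member adjoined an XS domain. That check did not cover slices, which most members are. The gene table at hand is of GRCm38.p6, so no gene was assigned and no sequence is shown. Pairing by line is from the titles. Among bins in no XS list, those of 2i/LIF line 34 and not 37 were covered more after the move by line 34. Those of 2i/LIF line 37 and not 34 were too, slightly, and most of these were also in 2i/LIF line 35. Bins of 2i/LIF line 37 alone were covered over 50.5% by line 34 after the move and 53.3% by line 37. For bins of 2i/LIF line 34 alone these shares were 89.9% and 83.8%. The software was Python 3.11.15 with numpy 2.4.6, pandas 2.3.3, scipy 1.17.1 and, for figures, matplotlib 3.10.9.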

Additional observations from a re-analysis of the deposited data

How the results depend on the processing

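The lists hold no depth, so no counting error can be given, and groups of 2 lists are too few for an exact permutation test to reach its threshold. The number of regions was 388 with the higher-scoring 50% of each list, and from 948 to 2140 with lists left out of the rule one at a time; their length was then 57.7 to 207 Mb, the highest values being without XS line 31. The mean share of members covered after the move was 66.96% with chromosomes 6, 8 and 13 included, 73.1% with the higher-scoring 50% of each list, 74.0% for members at least 13 kb from any XS domain, 76.2% without chromosome 19 (added after seeing the data), and 54.3% to 79.6% with each list left out. The difference from the S lists was 54.0 to 79.4 percentage points with each list left out, and that from the rest of the 2i-shared length -21.7 to -13.2. None of the settings run turned either difference. The difference from the S lists could hardly turn, since those of lines 35 and 37 covered only 0.0427% and 0.384% of all bins. With the line as a block, line 37 alone has both lists and gave 75.1 percentage points, which allows no test. The domain minimum of 10 kb, joining domains closer than 10 kb, joining regions 1 bin apart and a region minimum of 13 kb moved no mean share by more than the spread between the lists after the move. The cause of these shifts was not tested.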

Other observations

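The domains that lay on members were long ones in the lists after the move. In line 34 after the move, 558 of 1723 domains on the 16 autosomes touched a member, with a median length of 527.15 kb, against 231.4 kb for the domains that touched none. In line 37, 679 of 2764 did, with medians of 318.5 and 149.5 kb. Long domains touch any set of regions more often, so no test is given. The authors' score per bin, averaged over bins, was lower on members than on the rest of the 2i-shared length in each of these lists: 0.870 against 0.907 in line 34 after the move and 0.879 against 0.918 in line 37 after the move. In the 2i/LIF lists, which chose the members, the same averages were 0.838 against 0.891 (line 34), 0.753 against 0.791 (line 35) and 0.786 against 0.840 (line 37). The column of undefined meaning was above 0 in 16.5% of the domains touching members and 17.3% of the others in line 34 after the move, and in 0.736% and 1.06% in line 37 after the move.

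Members filled 10.6% of the 535 Mb that XS line 31 left uncovered. That length was made up of 1849 gaps, of which 729 held members. The gaps with members had a median length of 249.6 kb, against 174.2 kb for all gaps, these included. Members lie in such gaps by the rule, and a longer gap holds a member more easily, so no test is given.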
